A study of Caenorhabditis elegans with 12 samples.

Results

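lin-4 is a small regulatory RNA of the nematode Caenorhabditis elegans that times early larval development. It was followed through 1 of the 114 C. elegans microRNA probes of a 2-colour array, the probe named cel-lin-4. Each array set small RNA of 1 strain against small RNA of the wild-type strain N2, and both came from synchronized worms of larval stage 4 grown at 20 degrees Celsius on OP50 bacteria. The strains were a human alpha-synuclein A53T transgenic line, CB1111 (cat-1; e1111), which has lost the transporter that loads catecholamines into vesicles, and VC1024 (pdr-1; gk448), which has lost the worm counterpart of parkin. The labels give 4 worm populations per strain and 4 N2 preparations. The promoter of the transgene is not given in the sources used here, and each mutation was studied in 1 strain.

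In the worm, lin-4 pairs with sites in the messenger RNAs of lin-14 and lin-28, which hold early larval programs in place, and lowers their proteins. Larvae that lack lin-4 repeat fates of the first larval stage. The let-7 family acts later in the same pathway, and miR-237 is the relative that shares the seed of lin-4. The gene table of assembly WBcel235 places lin-4 on chromosome II, within the span of the protein-coding gene F59G1.4 and of the non-coding RNA F59G1.10, with rfip-1 and tsp-18 as the protein-coding neighbours on either side.

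Since the scanner data of cat-1 replicate 4 repeat those of replicate 3 value for value, the pair entered as a single array, and 11 arrays remained. Each C. elegans probe had 3 spots per array. A spot is called lit where its deposited intensity is above 0 in both channels, and the number of lit C. elegans spots ranged from 28 to 130 of 342. Each level of lin-4 below is a deposited intensity or a share of summed intensity, and each ratio is the strain over N2. That direction is likely rather than stated: the labels list N2 before the strain, without tying the scanner's channel letters to dyes. N2 carried the same dye on every array, so a dye bias of the probe cannot be told apart from a change against N2. The stage was checked on other microRNAs: the late larval let-7 was lit in 25 of 33 spots, and its relatives miR-48, miR-84 and miR-241 in 32, 25 and 15. Of the 8 probes of the embryonic miR-35 family, 4 were never lit and the other 4 were lit in 2 to 5 spots. The muscle microRNA miR-1 was lit in 33 of 33 spots, the neuronal miR-124 in 8 and lsy-6 in 0.

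lin-4 was lit on 7 of the 11 arrays and in 9 of its 33 spots. It was lit on alpha-synuclein replicates 1, 2 and 3, cat-1 replicates 1 and 2, and pdr-1 replicates 2 and 3. A further spot, on alpha-synuclein replicate 3, was lit for the strain but dark for N2, and the other 23 spots held 0 in both channels. Of the 50 microRNAs that were tested for differences, the median had 15 lit spots, 41 had more than lin-4 and 7 had fewer. On 5 arrays the ratio of lin-4 rested on a single spot, and on 2 arrays it rested on 2 spots. Its 3 spots were unequal: spot 1 was lit on 6 of 11 arrays (54.5%), spot 2 on 1 (9.09%) and spot 3 on 2 (18.2%), against 25.8%, 20.0% and 23.4% of all C. elegans spots at these positions.

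The 4 arrays without lin-4 tended to have fewer lit spots as a whole. They had 28 to 72 lit C. elegans spots (median 43.5), while the 7 arrays with lin-4 had 44 to 130 (median 91). These ranges overlap, since pdr-1 replicate 2 showed lin-4 with 44 lit spots and pdr-1 replicate 4 lacked it with 72. The median N2 intensity of microRNAs with a signal was 582072 to 943813 on the arrays without lin-4, against 114459 to 647201 on the 7 arrays with it. These medians cover only microRNAs with a signal, 13 to 32 on the arrays without lin-4 and 22 to 54 on the others. They therefore cannot show whether fainter signals were lost. The part of the number of lit spots in the loss of lin-4 was not tested. The arrays without it, alpha-synuclein replicate 4, cat-1 replicate 3 and pdr-1 replicates 1 and 4, belonged to all 3 strains.

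On the alpha-synuclein arrays, replicate 1 showed lin-4 in spot 1 at an intensity of 2583783 in the strain and 1598360 in N2. Replicate 2 showed it in spot 1 at 1734483 in the strain and 307086 in N2, and in spot 3 at 2616731 in the strain and 891639 in N2. Replicate 3 showed it in spot 1 at 645257 in the strain and 148847 in N2. The strain signal was above the N2 signal in all 4 of these lit spots, most of all in spot 1 of replicate 2. Spot 3 of replicate 3 had 1739193 in the strain and 0 in N2.

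The cat-1 arrays gave the faintest lin-4 signals in the strain channel. Replicate 1 had 76282 in the strain and 42261 in N2, both in spot 1. Replicate 2 had 547651 in the strain and 242856 in N2 in spot 2, and 289920 in the strain and 135436 in N2 in spot 3. In the N2 channel replicate 1 was the faintest of the 7 arrays, while the mean of replicate 2, 189146, lay above the 148847 of alpha-synuclein replicate 3.

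The pdr-1 arrays gave the brightest lin-4 signals in the strain channel. Replicate 2 had 4415043 in the strain and 641246 in N2, and replicate 3 had 2814491 in the strain and 384656 in N2, each in spot 1. In all 9 lit spots of lin-4 the strain signal exceeded the N2 signal before normalization. That was the rule on these arrays rather than a trait of lin-4, since the strain signal was the higher in 786 of 867 lit C. elegans spots (90.7%).

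**Figure D1:**
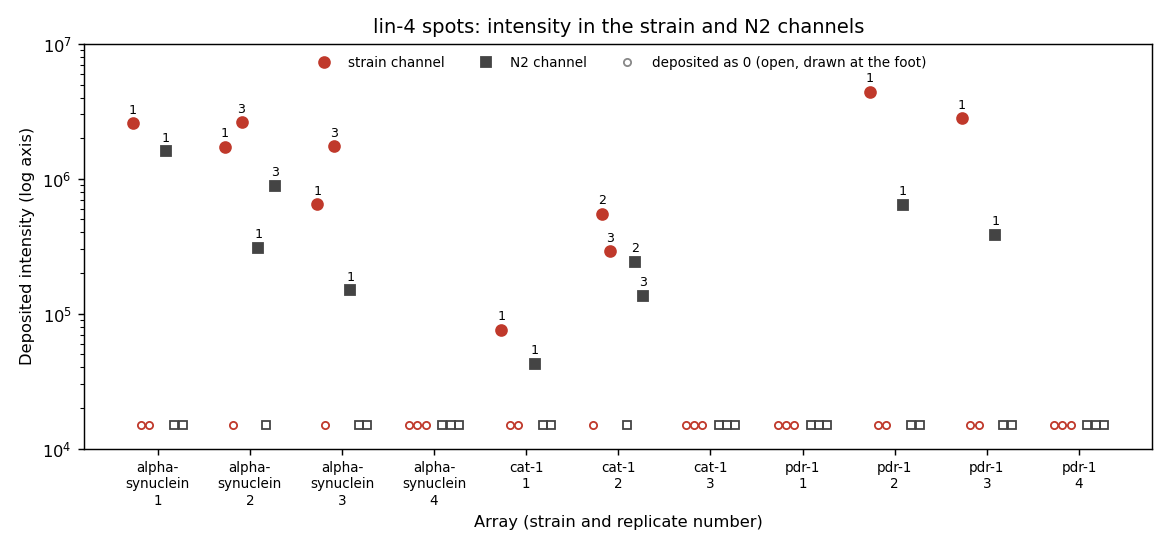
Deposited intensity of each lin-4 spot on a log axis, by array, with the strain channel as red circles and the N2 channel as dark grey squares. Numbers name the spot (1 to 3), and open symbols at the foot are spots deposited as 0. lin-4 was lit on 7 of 11 arrays, and its strain signals were faintest on the cat-1 arrays.

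Total signal differed between arrays, so lin-4 was also expressed as its share of the summed C. elegans microRNA signal of a channel, with each microRNA entered as the mean of its spots. In the strain channel the share was 6.06%, 1.85% and 0.893% on alpha-synuclein replicates 1, 2 and 3, 0.237% and 0.690% on cat-1 replicates 1 and 2, and 7.60% and 2.37% on pdr-1 replicates 2 and 3. In the N2 channel of the same arrays it was 3.66%, 1.51% and 2.79%, then 0.247% and 0.520%, then 5.20% and 1.65%. The share was higher in the strain than in N2 on 5 of 7 arrays. The exceptions were alpha-synuclein replicate 3 and cat-1 replicate 1. On alpha-synuclein replicate 3 the strain level averaged spot 1 with spot 3, which was dark in N2, while the N2 level was spot 1 alone. The sums there also differ, with 55 microRNAs in the strain and 45 in N2.

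The share of lin-4 in wild-type RNA itself varied 21.1-fold between arrays, against 32.1-fold in the strain channel. A share also depends on how many microRNAs gave a signal, which in N2 was 22 on pdr-1 replicate 2 and up to 54 elsewhere. Against the N2 median of its array, lin-4 ranged from 0.112-fold on cat-1 replicate 1 to 2.47-fold on alpha-synuclein replicate 1. On pdr-1 replicate 2, with the highest N2 share, it was 1.38-fold. The 2 cat-1 arrays had the lowest N2 shares and the 2 lowest strain shares, below those of the other 5 arrays. These N2 samples are all wild type, and levels of lin-4 therefore cannot be ordered by strain from these shares. The grouping by partner strain was noticed after the values were seen and was not tested.

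**Figure D2:**
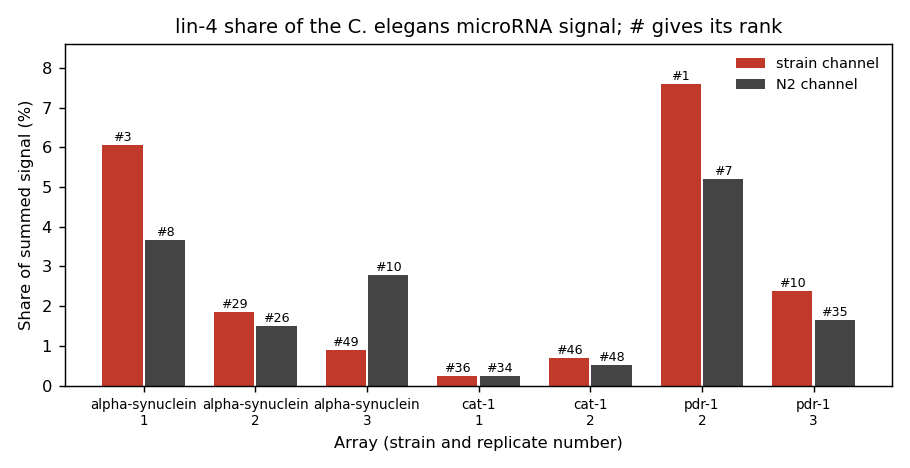
Share of lin-4 in the summed C. elegans microRNA signal (percent, from 0) on the 7 arrays that showed it, strain channel in red and N2 channel in dark grey. The number after # is the rank of lin-4 by intensity on that array and channel, 1 being the brightest. The strain bar is the higher on 5 of 7 arrays, and both bars are lowest on the 2 cat-1 arrays.

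The rank of lin-4 by intensity described its place within an array. A rank compares probes, which differ in how well they bind and label, so it is no measure of relative abundance. In the strain channel lin-4 ranked 3 of 50, 29 of 53 and 49 of 55 on alpha-synuclein replicates 1, 2 and 3, 36 of 36 and 46 of 54 on cat-1 replicates 1 and 2, and 1 of 23 and 10 of 55 on pdr-1 replicates 2 and 3. In the N2 channel it ranked 8 of 50, 26 of 53 and 10 of 45, then 34 of 36 and 48 of 54, then 7 of 22 and 35 of 54. lin-4 thus ran from the brightest microRNA of an array, on pdr-1 replicate 2, to the faintest, on cat-1 replicate 1, within the same channel. The strain rank of 49 on alpha-synuclein replicate 3 again used spots 1 and 3, and the N2 rank of 10 used spot 1 alone.

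By median rank over these arrays, lin-4 stood at 29 in the strain channel, between miR-51 and miR-80 above it (27 each) and miR-54 (31) below, and level with miR-1 (29). In the N2 channel it stood at 26, with miR-53 and miR-73 above (23.5 each) and miR-46 and miR-63 beside it (26 each). The ranks of lin-4 ranged from 1 to 49 in the strain channel and from 7 to 48 in N2. The ranges of all 27 other microRNAs with a signal on at least 6 of the 7 arrays overlapped that of lin-4 in the strain channel. Those of all 26 did so in N2. Since the range of lin-4 covers nearly the whole order, this overlap cannot show whether lin-4 differed from its neighbours.

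To compare each strain with N2, each spot's log2 ratio was corrected by loess on its own array, which removes the trend of the ratio with intensity. In the alpha-synuclein strain lin-4 had a log2 ratio of 0.78 on replicate 1, 0.00 on replicate 2 and -2.31 on replicate 3. The mean was -0.51 ± 1.61 (SD, n = 3), or 1.42-fold lower than N2 with an interval that takes in no change (95% confidence interval -1.24 to 0.22). limma with Benjamini-Hochberg adjustment over 50 microRNAs gave an adjusted p of 0.404, while 10% of these microRNAs passed at 0.05. An exact two-sided sign-flip permutation test over the 3 arrays gave p = 1, where the smallest possible is 0.25. limma's standard error of 0.37 rests on 1 SD of 0.64 shared by all microRNAs, while the 3 lin-4 values alone give 0.93.

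The alpha-synuclein mean was set by replicate 3, and without it lin-4 averaged 0.39 (adjusted p = 0.405 by limma). On that array lin-4 had the lowest ratio of 45 microRNAs, whereas it ranked 33 of 50 from the lowest on replicate 1 and 25 of 53 on replicate 2. Among the 36 microRNAs measured on at least 3 alpha-synuclein arrays, lin-4 had the second largest SD, against a median of 0.64. The low value came from spot 1 alone. Before normalization its log2 ratio was 2.12, on an array whose median was 4.55. In spot 3 of the same array the strain signal was 67.3-fold that of the lowest lit N2 spot. The median ratio of strain to N2 was 23.8-fold over the 83 C. elegans spots that were lit and not flagged S. The 2 spots of lin-4 on this array thus lay on opposite sides of the array's typical ratio, the second provided that its N2 value of 0 means a signal no higher than the lowest lit one. The meaning of the flag that marks it is not given in the sources used here.

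In the cat-1 mutant lin-4 stood at -0.13 on replicate 1 and 0.05 on replicate 2, with a mean of -0.04 ± 0.13 (SD, n = 2). The 95% confidence interval was -0.93 to 0.86 (limma adjusted p = 0.980, 0% of 48 microRNAs passed, with 4 under 0.05 before adjustment). It rests on the shared SD of 0.64, while the median SD was 0.24 over the 36 microRNAs measured on at least 2 cat-1 arrays. With the strain fitted alone the standard error of lin-4 was 0.30 in place of 0.45. Its adjusted p by limma was then 0.946, and 4 of 48 microRNAs passed. The exact sign-flip permutation test gave p = 1, with 0.5 the smallest possible. The 2 spots of replicate 2 had normalized log2 ratios of 0.34 and -0.23, so spots of 1 array differed by more than the 2 arrays did. Without replicate 1 the value was 0.05, on the other side of 0.

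In the pdr-1 mutant lin-4 was above N2 on both arrays that measured it, at 0.52 on replicate 2 and 0.56 on replicate 3. The mean was 0.54 ± 0.03 (SD, n = 2), or 1.46-fold higher than N2, and it did not pass (95% confidence interval -0.35 to 1.44, limma adjusted p = 0.905, 0% of 48 microRNAs passed, with 2 under 0.05 before adjustment). lin-4 was eighth by p-value among the 48. An exact sign-flip permutation test gave p = 0.5, which is the smallest that 2 arrays allow. On replicate 2 its ratio ranked 21 of 22 from the lowest and on replicate 3 it ranked 43 of 54. Its SD was the smallest of the 38 microRNAs measured on at least 2 pdr-1 arrays, against a median of 0.38, but each value came from 1 spot. The normalized ratios of pdr-1 replicates 1 and 4 opposed each other over 14 shared microRNAs (r = -0.593), so the direction of these 2 arrays is not settled. lin-4 was lit on neither, and with either array turned its mean remained 0.54.

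**Figure D3:**
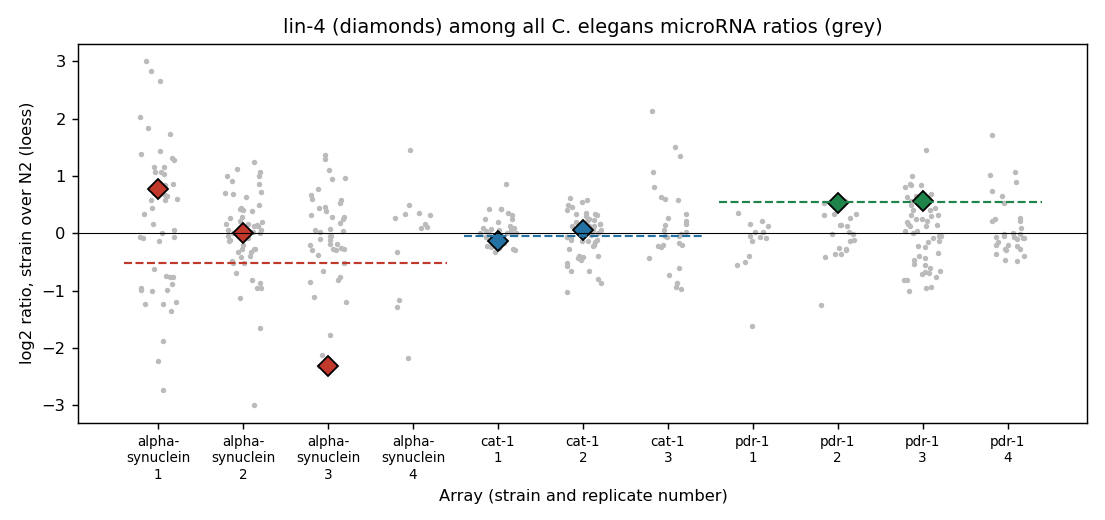
Loess-normalized log2 ratio of strain over N2 for all C. elegans microRNAs (grey) and lin-4 (diamonds) on each of 11 arrays, with dashed lines at the mean of lin-4 in each strain. Both pdr-1 values lie above 0, both cat-1 values lie near 0, and the alpha-synuclein values run from 0.78 down to -2.31, the lowest ratio of its array.

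In the contrasts of 1 strain with another, which a constant dye bias does not touch, lin-4 passed in 0 of 3. The alpha-synuclein strain lay 2.07-fold below pdr-1 (means -0.51 and 0.54, difference -1.05 ± 0.59 SE, 95% confidence interval -2.21 to 0.11, limma unadjusted p = 0.0745, adjusted p = 0.716, with 2.08% of 48 microRNAs called). That was the fifth lowest p-value of the contrast. Without alpha-synuclein replicate 3 the difference was -0.15. Against cat-1 the alpha-synuclein strain differed by -0.47 ± 0.59 (means -0.51 and -0.04, 95% confidence interval -1.63 to 0.69, adjusted p = 0.954, 0% of 48 called, 4 under 0.05 before adjustment), and by 0.43 without alpha-synuclein replicate 3. cat-1 differed from pdr-1 by -0.58 ± 0.64 (means -0.04 and 0.54, 95% confidence interval -1.85 to 0.69, adjusted p = 0.981, 0% of 46 called, 0 under 0.05 before adjustment). Exact two-sided permutation tests of the arrays gave p = 0.7 for alpha-synuclein against pdr-1 and p = 0.9 against cat-1, where 0.1 is the smallest possible. For cat-1 against pdr-1 the exact permutation p was 0.333, the smallest that this comparison allows.

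The sign of lin-4 in cat-1 depended on how the array was centred, and in alpha-synuclein it turned where the array was not centred. Without normalization the mean log2 ratio was 1.61 in the alpha-synuclein strain, 0.99 in cat-1 and 2.83 in pdr-1, but the medians of all tested microRNAs were then 1.84, 0.78 and 2.08. Relative to those medians lin-4 lay lower in the alpha-synuclein strain and higher in both mutants. With median centring the means were -0.44, 0.16 and 0.50, and with loess on all spots of the array -0.30, -0.11 and 0.92. The pdr-1 mean was above 0 and the alpha-synuclein mean below 0 under each of the 4 normalizations that centre the array, while the cat-1 mean took both signs.

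**Figure D4:**
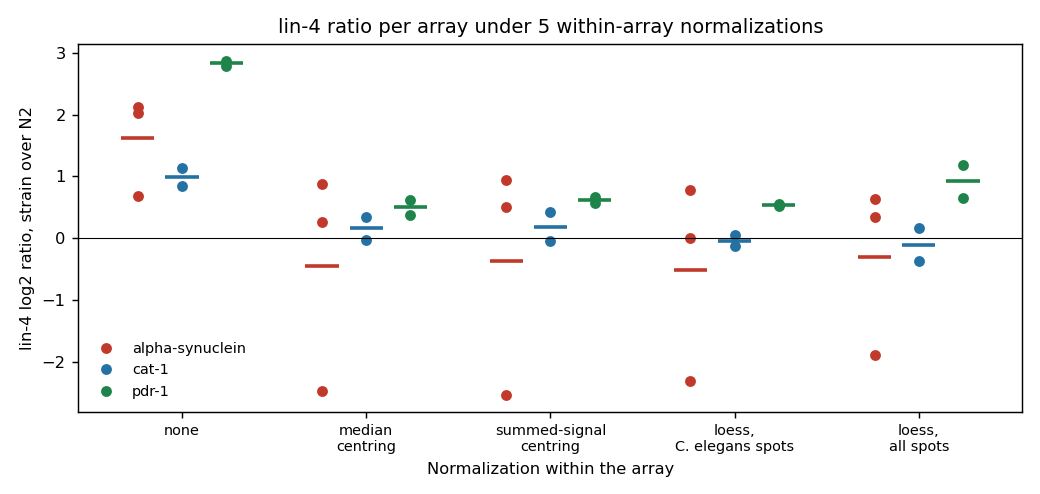
Log2 ratio of lin-4, strain over N2, per array (points) with the strain mean (bars) under 5 ways of normalizing within the array. All strains lie above 0 without normalization, and 1 alpha-synuclein array, replicate 3, lies far below the other 2 under each of the 4 settings that centre the array.

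The other microRNAs of the larval timing pathway were read beside lin-4. Of the list of 6, which was drawn up with earlier results of these data known, 5 were tested, and miR-237 was lit in 0 of 33 spots. In the alpha-synuclein strain 2 of the 5 were lower than N2 and 0 higher by limma, where 10% of all 50 tested microRNAs passed (3 lower and 2 higher). The median of the 5 was -0.97 against 0.14 over all tested microRNAs. let-7, which drives the passage from larva to adult, lay 3.48-fold below N2 with a mean of -1.80 ± 0.37 (SE), lower on all 3 arrays (adjusted p = 0.000121). Its arrays stood at -1.87, -3.00 and -0.52, a wide spread. The standard error and adjusted p rest on the SD of 0.64 shared by all microRNAs, not on the spread of let-7 itself. No exact permutation test was made for let-7. The mean of miR-48, a let-7 relative of the middle larval stages, was -0.97 ± 0.32 (SE), or 1.96-fold lower (adjusted p = 0.0355). Its 4 arrays stood at -0.99, -0.41, -0.30 and -2.18, all below 0 but with replicates 2 and 3 well short of the mean. miR-84 (-0.98, adjusted p = 0.0631) and miR-241 (-0.63, adjusted p = 0.334), relatives that act with miR-48, did not pass. miR-84 passed with median centring (-1.25, adjusted p = 0.0154), with centring on summed signals (-1.18, adjusted p = 0.0235) and where the test was limited to microRNAs seen on 8 or more arrays (adjusted p = 0.0263). It stood at -0.11 without alpha-synuclein replicate 1, at -0.34 with scale normalization between arrays and at -0.06 with loess on all spots.

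The calls of let-7 and miR-48 depended on single arrays and on some settings. Without normalization within arrays they stood at 0.19 and 0.63, both below the median of 1.84 that all tested microRNAs then had, and neither passed. With scale normalization between arrays neither passed (adjusted p = 0.0531 and 0.267). Without alpha-synuclein replicate 2 neither passed (adjusted p = 0.0713 for both). miR-48 also failed without alpha-synuclein replicate 1 (-0.96, adjusted p = 0.243) and without replicate 4 (-0.57, adjusted p = 0.388). Without cat-1 replicates 1 or 2 or pdr-1 replicates 2 or 3, each left out in turn, its adjusted p was 0.0571, 0.0519, 0.0545 and 0.0653 at an unaltered ratio. It failed too with loess on all spots (-0.72), with the strain fitted alone and with a loess span of 0.5 (adjusted p = 0.257, 0.226 and 0.0516). The fit with the replicate block leaves out replicate 4 and gave -0.57 (adjusted p = 0.357), the same value as without that array.

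lin-4 and the let-7 family did not follow each other over the alpha-synuclein arrays. On replicates 1 and 2, where lin-4 stood at 0.78 and 0.00, let-7 stood at -1.87 and -3.00. On replicate 3, where lin-4 fell to -2.31, let-7 stood at -0.52, miR-48 at -0.30, miR-84 at 0.06 and miR-241 at -0.29, each the highest value of that microRNA in the strain. These are 3 arrays and no test was made.

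In the mutants 0 of the 5 tested members passed in either direction, against 0% of all tested microRNAs. The median of the 5 was -0.04 in cat-1 and 0.10 in pdr-1, against 0.07 and -0.01 over all tested. In cat-1, let-7 (-0.17), miR-48 (-0.11) and miR-84 (0.19) lay near lin-4, and miR-241 stood at 1.06 (adjusted p = 0.568). That mean joins -0.02 on replicate 2 and 2.14 on replicate 3, and it passed with the strain fitted alone (adjusted p = 0.0225). It also passed where the identical files of replicates 3 and 4 were both counted (1.42, adjusted p = 0.00551). In pdr-1, miR-241 at 1.14 (adjusted p = 0.605) lay above lin-4, while let-7 (-0.04), miR-84 (0.10) and miR-48 (-0.59) lay below it. If replicate 4 of pdr-1 is turned, the miR-241 mean becomes -0.57. Of the contrasts between strains, let-7 passed in alpha-synuclein against pdr-1 (-1.76, adjusted p = 0.0198). It failed with the 2 strains fitted alone (adjusted p = 0.0613), in the authors' deposited table (-1.66, adjusted p = 0.149), with scale normalization between arrays (-1.16, adjusted p = 0.171) and with no normalization within arrays (-1.67, adjusted p = 0.993). It also failed without alpha-synuclein replicate 1 or 2 or pdr-1 replicate 1, 2 or 4 (adjusted p = 0.241, 0.249, 0.0674, 0.106 and 0.0610). Against cat-1, 0 of the 5 passed, but let-7 did so without alpha-synuclein replicate 3 (-2.26, adjusted p = 0.00713) and under that limit of 8 arrays (-1.62, adjusted p = 0.0151). With the identical files of cat-1 replicates 3 and 4 counted as 2 arrays, let-7 (-1.61, adjusted p = 0.0217) and miR-241 (-2.04, adjusted p = 0.00413) passed. Without cat-1 replicate 2, which leaves miR-241 on 1 cat-1 array, miR-241 stood at -2.76.

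**Figure D5:**
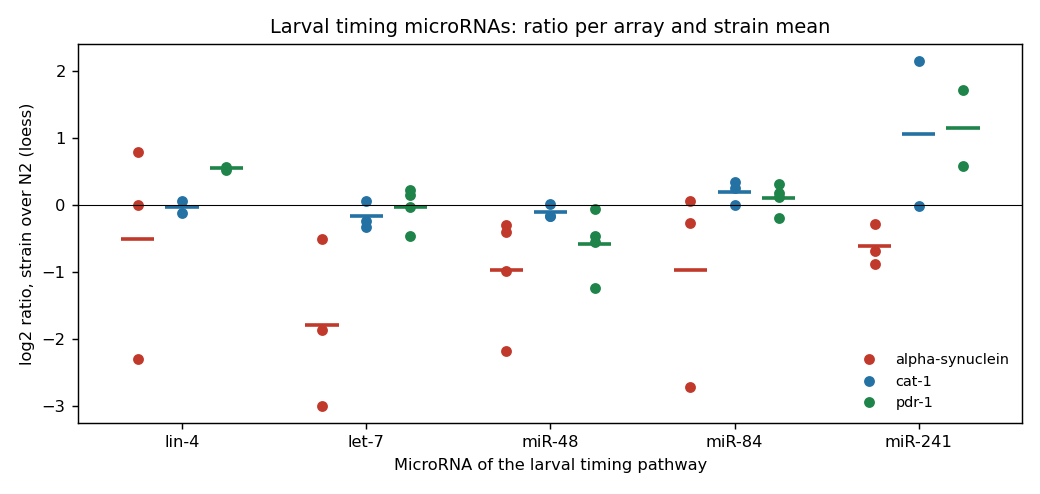
Loess-normalized log2 ratio of strain over N2 per array (points) with the strain mean (bars) for lin-4 and the 4 measured let-7 relatives. The let-7 means are -1.80 in alpha-synuclein, -0.17 in cat-1 and -0.04 in pdr-1, and lin-4 has 1 alpha-synuclein array at -2.31 beside 2 at or above 0.

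Over the arrays with lin-4, the microRNAs with the highest correlation of normalized ratios with it were miR-52 (Pearson r = 0.77, 7 arrays), miR-229 (r = 0.71, 6 arrays) and miR-55 (r = 0.70, 7 arrays), and miR-81 ran most against it (r = -0.60, 6 arrays), among 26 microRNAs with at least 6 shared arrays. The values share arrays, dyes and normalization. miR-52 stood at 1.15, -0.09 and -1.20 on alpha-synuclein replicates 1, 2 and 3, in the same order as lin-4. Without alpha-synuclein replicate 3 its correlation was 0.49 over 6 arrays, that of miR-229 was 0.69 over 5 and that of miR-55 was 0.61 over 6, while that of miR-81 was -0.99 over 5. The order then changed: miR-54 (0.96, 5 arrays), miR-83 (0.92, 5 arrays) and miR-63 (0.80, 6 arrays) lay above all 3, and miR-56 equalled miR-81. These 4 are named after their values were seen. The rank correlation of miR-52 over all 7 arrays was 0.39. With so few points these values describe the arrays and no more.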

How the data were processed

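Small RNA of each strain and of N2 was hybridised together on 2-colour NCode arrays, per the labels' protocols. The deposited scanner files give 1 intensity per channel and a flag letter for 4608 spots, per the file headers, with no background column. A series value table deposited by the authors gives log2 ratios. It equals the scanner's log2 ratio, second over first signal, less that of summed signals on 10 of 12 arrays. On alpha-synuclein replicate 2 and cat-1 replicate 4 it does not, and there centring is unknown. Its column medians are 0.07, 0.27, -0.06 and 0.40 in alpha-synuclein columns, -0.03, 0.08, 0.03 and 0.13 in cat-1 columns, then 0.20, 0.05, 0.19 and -0.03 in pdr-1 columns, replicates 1 to 4.

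Spots flagged S were left out, ratios corrected by a loess curve through the C. elegans spots (4 iterations, span 0.3) and spots of a probe averaged. Probes with a signal in either channel on 4 or more of 11 arrays, 50 in all, were tested with limma 3.58.1 in R 4.3.3 (1 mean per strain, infinite prior degrees of freedom, Benjamini-Hochberg at 0.05), which was tested on simulated data. The number of arrays limits precision. lin-4, its list and the rule for named microRNAs were chosen with earlier results of these data known. The named ones are lin-4, the larval timing list, the 3 most like and the 1 least like lin-4, and its neighbours in rank. Alternatives concerned normalization, flags, averaging, filters, the samples fitted, replicate blocks, direction, the deposited table and arrays left out.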

Additional observations from a re-analysis of the deposited data

Results flagged for a closer look

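The authors' deposited table lists lin-4 at a log2 ratio of 0.46 in spot 3 of cat-1 replicate 4. That value drew attention because it is a signal outside the main measurement: the scanner file of cat-1 replicate 4 repeats that of replicate 3, in which all 3 lin-4 spots are at 0. The deposited column for this array therefore was not made from the scanner file given for it. Beside it, the authors' deposited table gives lin-4 at -0.05 on cat-1 replicate 1 and 0.41 on replicate 2.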

How the results depend on the processing

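lin-4 passed the threshold in 0 of 156 alternative tests over its 6 comparisons. Many of these could not alter its ratios, since they concerned arrays where it had no ratio or arrays of a strain outside the comparison. Signs turned as follows. Without normalization within arrays the ratio to N2 was 1.61 in alpha-synuclein and 0.99 in cat-1, and alpha-synuclein minus cat-1 was 0.62. The cat-1 ratio was 0.16 with median centring, 0.27 in the authors' deposited table and 0.19 with centring on summed signals, a setting added after seeing the data, as were loess spans of 0.5 and 0.75. With the replicate block, fitted on arrays numbered 1 to 3, alpha-synuclein minus cat-1 was 0.09 and alpha-synuclein minus pdr-1 was -1.49 (adjusted p = 0.293). The ratio to N2 was then -0.51 in alpha-synuclein, -0.59 in cat-1 and 0.98 in pdr-1, and cat-1 minus pdr-1 was -1.58. By limma the pdr-1 ratio had an unadjusted p of 0.0415 (adjusted p = 0.568). For cat-1 minus pdr-1 the unadjusted p was 0.0285 (adjusted p = 0.679). Pairing by number was not visible in the ratios. A correlation of deviations above 0.1 arose in 1 of 10 same-numbered pairs and 13 of 30 other pairs of different strains. Of the 11 arrays, 0 matched best with their own number. Same-numbered pairs shared as few as 13 microRNAs and the other pairs as few as 7. Whether same-numbered arrays shared an N2 preparation was not tested. The block fit called 3 of 44 microRNAs in alpha-synuclein, against 5 of 50 as reported. It leaves out alpha-synuclein replicate 4 and pdr-1 replicate 4, and without either one alone the calls were 4 of 50. The part of the block in the drop was not tested. Calls numbered 1 without alpha-synuclein replicate 1 or replicate 2, and 3 without its replicate 3, cat-1 replicate 1 or 2, or pdr-1 replicate 2 or 3.

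With 1 array left out at a time, the ratio to N2 ranged from -1.15 to 0.39 in alpha-synuclein, -0.13 to 0.05 in cat-1 and 0.52 to 0.56 in pdr-1. The differences ranged from -1.12 to 0.43 for alpha-synuclein minus cat-1, -1.70 to -0.15 for alpha-synuclein minus pdr-1 and -0.67 to -0.49 for cat-1 minus pdr-1. Values above 0 for alpha-synuclein arose without its replicate 3, and for cat-1 without its replicate 1. The cause of the other turns was not tested. Calls among all microRNAs ranged from 0 (scale normalization) to 18 (no normalization, 18 of them higher) in alpha-synuclein, against 5 as reported with 2 higher. They ranged from 0 to 4 in cat-1 (4 with the strain fitted alone) and from 0 to 1 in alpha-synuclein minus pdr-1. In alpha-synuclein minus cat-1 they ranged from 0 to 2, with 2 where the identical cat-1 files were both counted. Requiring a signal on 8 arrays left lin-4 out.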

Other observations

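On alpha-synuclein replicate 2, the lin-4 values of the authors' deposited table could not be rebuilt from the scanner file by 1 centring constant. The table gives 1.40 for spot 1 and 0.57 for spot 3, which lie 1.10 and 0.98 below the scanner's log2 ratios of 2.50 and 1.55, while the ratio of summed signals on that array is 1.51 on the log2 scale. On the other 6 arrays with scanner values of lin-4, the difference equalled the ratio of summed signals of that array to 2 decimals. Over all 126 shared spots of replicate 2 the scanner and deposited values correlated at 0.721.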
